A study of Mus musculus with 5 samples.

Results

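The genes described here encode parts of the cascade that carries signals from receptor tyrosine kinases through RAS and RAF to MEK. They are Grb2, Sos1, Nras, Nf1, Rasa1, Araf, Braf, Ksr1, Map2k1 and Map2k2, 10 of the 18194 genes on the arrays with a probe set of their own, listed by name, with earlier results of these data known. Every probe set that the platform annotation gives to 1 of these symbols alone was taken, 36 of the 34958 probe sets with 1 symbol. A probe set is a group of short probes that reads 1 transcript or part of it. Probe sets whose mean signal reached 47.4, which is the median of all deposited values, were tested. That left 27 of the 36, with at least 1 for each gene.

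RNA came from B9 cells, a mouse cutaneous squamous cell carcinoma line labelled with the genotype HRAS-Q61L, an activating change in a RAS protein, which all groups share. Cultures were kept for 17 h with 1 µM PLX4032 (vemurafenib; 2 arrays), with 1 µM PLX7904 (2 arrays) or with a DMSO vehicle labelled 0.2% (1 array). Vemurafenib inhibits mutant BRAF but can activate the MAPK pathway where RAS is mutated. PLX7904 belongs to the BRAF inhibitors called paradox breakers. B9 is 1 cell line, the labels call the arrays biological replicates without describing the cultures, and p-values therefore measure the spread between these arrays.

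In this cascade the adaptor GRB2 brings the exchange factor SOS1 to an activated receptor, and SOS1 loads RAS with GTP. Loaded RAS recruits RAF kinases, which phosphorylate MEK1 and MEK2, the kinases that activate ERK. Neurofibromin and p120 RasGAP end the signal by speeding up GTP hydrolysis on RAS, and KSR1 holds RAF and MEK together. In keratinocytes the pathway drives proliferation, and mutant RAS is a common driver of skin tumours in mice. RAF inhibitors act on the kinases themselves, whereas the arrays measured transcripts only.

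Between the compounds, 2 of 3 probe sets of Rasa1, the 1 of Map2k1, 1 of 2 of Grb2 and 1 of 3 of Nras were higher with vemurafenib, by 1.27-fold to 1.41-fold. The other Grb2 and Nras probe sets differed by 0.994-fold to 1.06-fold and did not pass. Against DMSO, Rasa1 rose 1.32-fold to 1.47-fold over its 3 probe sets and 1 of the 3 Nras probe sets rose 1.33-fold. No probe set of the 10 genes was called lower in any comparison, and none was called with PLX7904 against DMSO. Braf and Araf, which encode the RAF kinases measured here, did not pass in any comparison, nor did Sos1, Nf1, Ksr1 or Map2k2. A probe set was called at an adjusted p under 0.05 in limma, adjusted by the Benjamini-Hochberg method over all 19766 probe sets tested. Fold changes are on the log2(signal + 3.34) scale, which understates the change of dim transcripts.

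Of the 27 probe sets, 4 were called higher with vemurafenib than with DMSO (14.8%), against 3.74% of all probe sets tested, and 0 were called lower, against 3.41%. Between the compounds 5 were higher with vemurafenib (18.5%), against 4.62% of all, and 0 were lower, against 4.53%. Probe sets of 1 gene are not independent, and these calls fell in 2 and 4 of the 10 genes. Rasa1 alone gave 3 of the 4 against DMSO. With 1 probe set a gene, 1 of 10 was higher than with DMSO, against 590 of all 10853. Likewise 3 of 10 were higher than with PLX7904, against 698 of 10853. With PLX7904 against DMSO limma called 0 of the 27 higher and 0 lower, and 0% of all probe sets in either direction. Unadjusted p-values under 0.05 were reached there by 1 of the 27 and by 1194 of all. The median log2 difference of the 27 was 0.09 between vemurafenib and DMSO, where that of all probe sets was -0.07. It was 0.04 against -0.04 between the compounds, and -0.08 against -0.02 between PLX7904 and DMSO. Both comparisons with DMSO share its single array, which has no replicate of its own, so that its spread was taken from the treated arrays. When limma estimated the variance without its trend on intensity, 0 of the 27 and 0 of all probe sets were called in each comparison, with adjusted p of 0.149 to 0.242 for the called members.

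**Figure D1:**
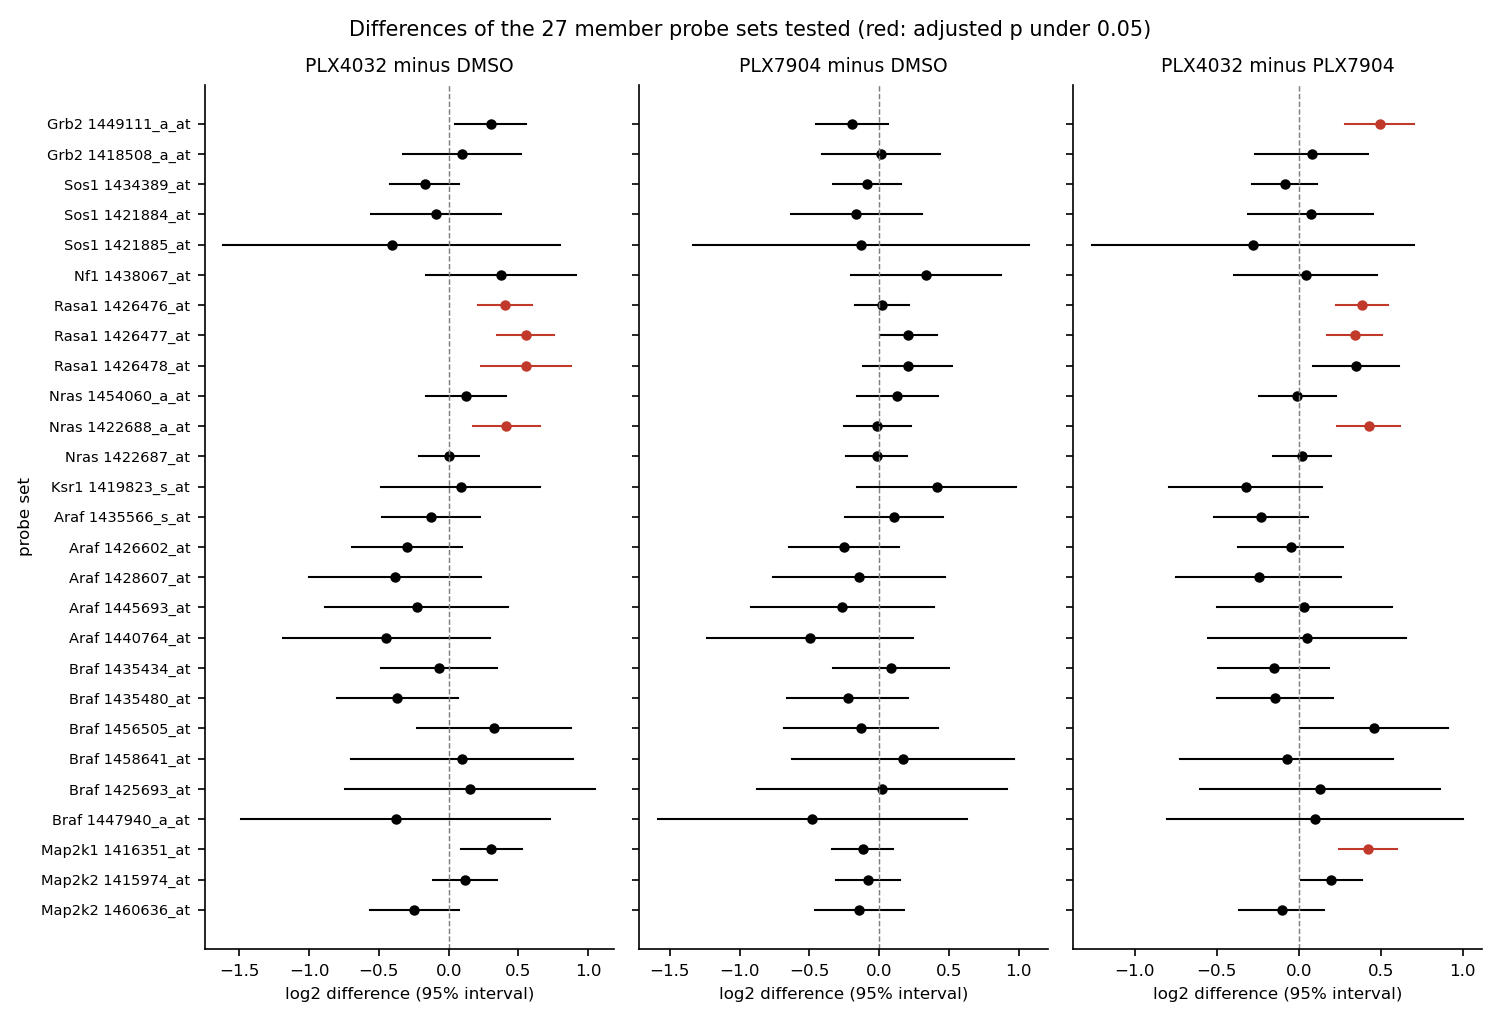
Log2 difference and 95% interval of the 27 probe sets tested, in rows, for the comparisons of vemurafenib (PLX4032) with DMSO, of PLX7904 with DMSO, and of vemurafenib with PLX7904, with called probe sets in red. The red points are the 3 of Rasa1 and 1 of Nras in the left panel and Grb2, Map2k1, Nras and 2 of Rasa1 in the right panel, all above 0, and the middle panel has none.

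The arrays had median signals from 44.1 to 51.9, and correlations of log2 signals between arrays lay between 0.979 and 0.988. Keratinocyte markers were bright, with 9 of 9 measured past the filter and a summed signal of 78988 on the DMSO array, 93638 to 94677 with vemurafenib and 83572 to 84762 with PLX7904. Not all of them rose. Of 15 keratinocyte probe sets tested, 5 were called higher with vemurafenib than with DMSO (33.3%, against 3.74% of all probe sets tested). None was called lower, against 3.41% of all. Lamb3 read 3752 with DMSO and 9008 and 8331 with vemurafenib, and the brighter Itga6 probe set 14174, then 19946 and 19643. Krt5 read 12250 with DMSO and 10583 and 10654 with vemurafenib. Between the compounds 6 of the 15 were called higher (40%, against 4.62% of all) and 1 lower (6.67%, against 4.53%). The lower one was that of Krt5 (0.850-fold, adjusted p = 0.0272). Markers of melanocytes, fibroblasts, endothelial and immune cells were dim, with 2 of 7, 1 of 6, 1 of 4 and 2 of 5 past the filter, and no summed signal above 402. Summed over its genes, the fibroblast list read 164 with DMSO, 373 to 402 with vemurafenib and 195 to 246 with PLX7904. Of that sum 1 probe set of Pdgfra gave 83.3 with DMSO, 264 and 231 with vemurafenib and 138 and 132 with PLX7904, while Col1a1, Col1a2, Col3a1, Dcn and Lum stayed below the filter. The melanocyte marker Pmel read 12.4 with DMSO, 85.5 and 82.8 with vemurafenib and 72.2 and 60.8 with PLX7904. It was called 5.57-fold above DMSO with vemurafenib (adjusted p = 0.0122). Its DMSO signal lay below the filter, and the treated arrays lifted its mean past it. Mitf, the other melanocyte marker past the filter, read 96.6 with DMSO, 63.4 and 61.5 with vemurafenib and 84.5 and 73.8 with PLX7904. It was not called, and Dct, Tyr, Tyrp1, Mlana and Sox10 stayed below the filter. The part of these markers in the results below was not tested. In RNA from whole cultures, a change in each cell and a change in the share of cells that hold a transcript cannot be told apart.

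Grb2, the adaptor, was higher with vemurafenib than with PLX7904. Its probe set 1449111_a_at read 2687 on the DMSO array, 3473 and 3156 with vemurafenib, and 2538 and 2176 with PLX7904. Both vemurafenib arrays lay above the other 3, and both PLX7904 arrays lay below DMSO. The difference between the compounds was 1.41-fold (95% interval 1.22 to 1.63, adjusted p = 0.0109). Vemurafenib was 1.23-fold above DMSO (1.03 to 1.47, adjusted p = 0.153) and PLX7904 0.875-fold of DMSO (0.732 to 1.04, adjusted p = 0.888), and neither passed. The other probe set, 1418508_a_at, which the annotation gives the same source sequence, read 548 with DMSO, 633 and 540 with vemurafenib and 642 and 477 with PLX7904. Its arrays overlapped, and the difference between the compounds was 1.06-fold (0.831 to 1.34). Without PLX7904 replicate 2 the call of 1449111_a_at ended (adjusted p = 0.0501).

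Sos1, the exchange factor that GRB2 carries, showed no call in any of its 3 tested probe sets. The probe set 1434389_at read 2113 with DMSO, 1939 and 1810 with vemurafenib, and 1882 and 2101 with PLX7904. The treated groups overlapped, and both lay below the DMSO array. Vemurafenib against PLX7904 was 0.942-fold (95% interval 0.821 to 1.08) and vemurafenib against DMSO 0.887-fold (0.749 to 1.05, adjusted p = 0.387). The probe sets 1421884_at and 1421885_at were dimmer, with signals from 36.3 to 265. Their log2 differences between vemurafenib and DMSO were -0.09 (SE 0.21) and -0.41 (SE 0.54).

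Nras encodes a RAS GTPase related to the mutant HRAS of these cells. Its 3 probe sets differed. The probe set 1422688_a_at read 2056 with DMSO, 2676 and 2806 with vemurafenib, and 2165 and 1920 with PLX7904. The vemurafenib arrays stood above the other 3, and the PLX7904 arrays lay on either side of DMSO. Vemurafenib was 1.33-fold above DMSO (95% interval 1.13 to 1.57, adjusted p = 0.0458) and 1.34-fold above PLX7904 (1.17 to 1.54, adjusted p = 0.0150).

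A probe set that the annotation derives from the same source sequence, 1422687_at, showed no such difference. It read 1998 with DMSO, 1973 and 2031 with vemurafenib, and 1953 and 1992 with PLX7904, and the compounds differed by 1.01-fold (95% interval 0.898 to 1.15). The remaining Nras probe set, 1454060_a_at, read 2581 with DMSO, 2679 and 2950 with vemurafenib, and 2543 and 3144 with PLX7904. Its treated groups overlapped, and the compounds differed by 0.994-fold (0.845 to 1.17). Between the compounds the intervals of these probe sets end below the lower bound of the called one, whereas against DMSO they overlap its interval. The difference between probe sets was not itself tested.

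The call of Nras against DMSO ended with quantile-normalized signals (adjusted p = 0.0585), with cyclic loess (0.0505), without the filter on signal (0.0911) and without vemurafenib replicate 2 (0.0967). Between the compounds it ended without PLX7904 replicate 2 (adjusted p = 0.0603).

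Rasa1 encodes p120 RasGAP, which switches RAS off, and all 3 of its probe sets rose with vemurafenib against DMSO. The probe set 1426477_at read 2088 with DMSO, 3047 and 3079 with vemurafenib, and 2382 and 2451 with PLX7904. The 3 groups did not overlap, and PLX7904 lay between DMSO and vemurafenib. Vemurafenib was 1.47-fold above DMSO (95% interval 1.27 to 1.69, adjusted p = 0.00766) and 1.27-fold above PLX7904 (1.13 to 1.42, adjusted p = 0.0201). PLX7904 was 1.16-fold above DMSO (1.00 to 1.33) and did not pass (adjusted p = 0.801), although its unadjusted p of 0.0448 was the only one under 0.05 among the 27 in that comparison.

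The Rasa1 probe set 1426476_at read 3607 with DMSO, 4623 and 4938 with vemurafenib, and 3708 and 3607 with PLX7904. The PLX7904 arrays lay on either side of DMSO, at 1.01-fold (95% interval 0.886 to 1.16). Vemurafenib was 1.32-fold above DMSO (1.16 to 1.52, adjusted p = 0.0227) and 1.31-fold above PLX7904 (1.17 to 1.46, adjusted p = 0.00974). The remaining one, 1426478_at, read 449 with DMSO, 697 and 626 with vemurafenib, and 503 and 533 with PLX7904. It was 1.47-fold above DMSO (1.18 to 1.83, adjusted p = 0.0470) and, at 1.27-fold above PLX7904 (1.06 to 1.53), did not pass between the compounds (adjusted p = 0.0977).

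Against DMSO, 1426477_at kept its call without either vemurafenib array, while 1426476_at lost it without vemurafenib replicate 2 (adjusted p = 0.0776) and 1426478_at without replicate 1 (0.157). Without the filter on signal, 1426476_at (0.0543) and 1426478_at (0.0877) lost it as well. Between the compounds, 1426476_at kept its call whichever treated array was left out (adjusted p up to 0.0463), whereas 1426477_at lost it without vemurafenib replicate 1 (0.0757), vemurafenib replicate 2 (0.0778) or PLX7904 replicate 1 (0.0517).

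Nf1 encodes neurofibromin, the other GTPase activator among the 10 genes. Only 1 of its 3 probe sets passed the filter. That one, 1438067_at, read 119 with DMSO, 153 and 157 with vemurafenib, and 155 and 147 with PLX7904. All 4 treated arrays lay above the single DMSO array, and the compounds overlapped, at 1.03-fold (95% interval 0.760 to 1.39). Vemurafenib was 1.30-fold above DMSO (0.895 to 1.88, adjusted p = 0.390) and PLX7904 1.26-fold (0.870 to 1.83, adjusted p = 0.907), and neither passed.

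**Figure D2:**
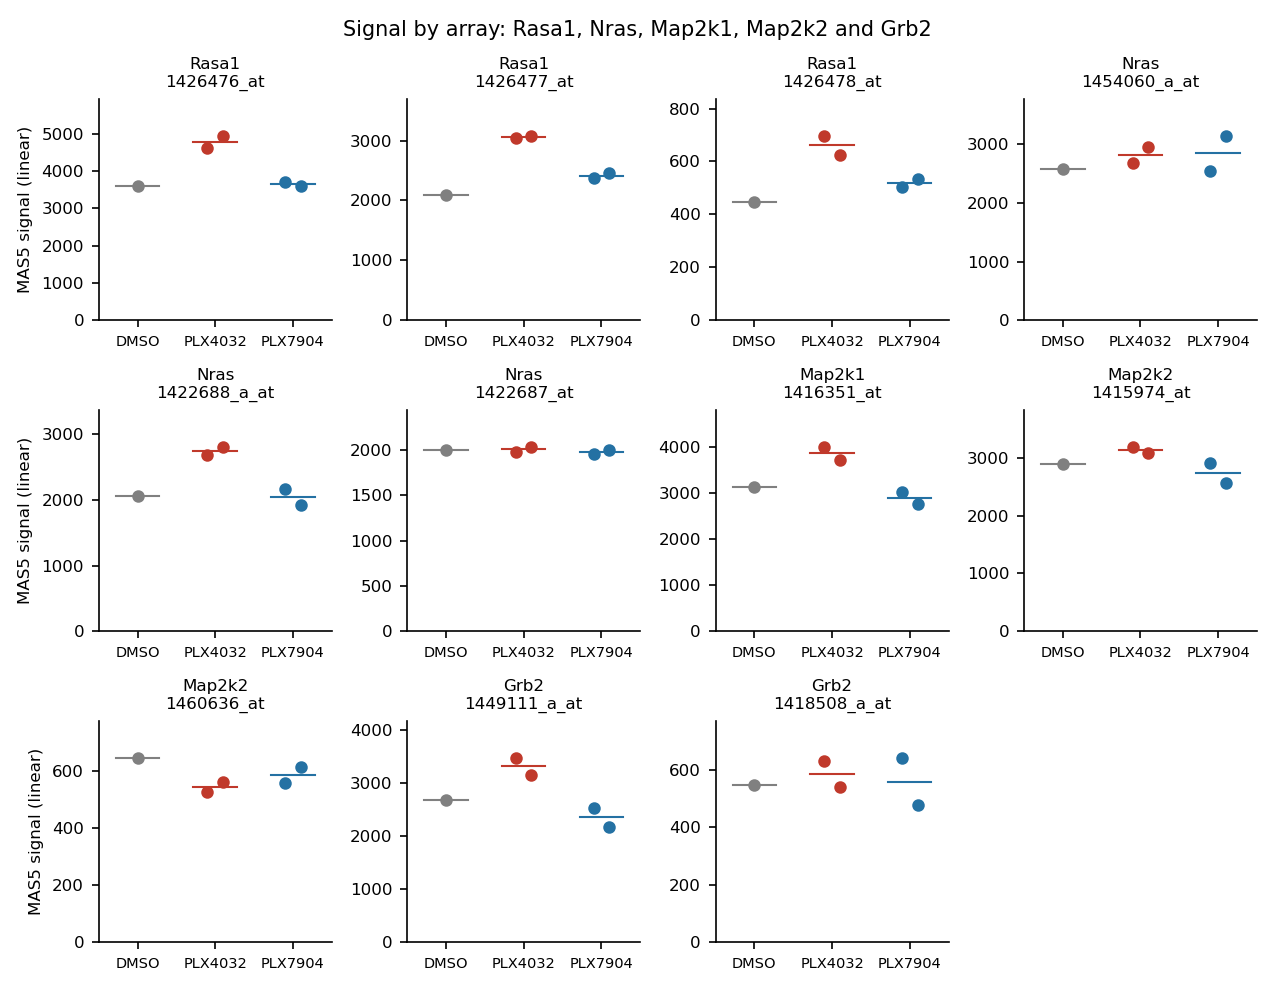
Deposited MAS5 signal on a linear scale (y axis, from 0) on each of the 5 arrays for every tested probe set of Rasa1, Nras, Map2k1, Map2k2 and Grb2, with points for arrays and a line for the group mean. In the panels of Rasa1, Map2k1, Nras 1422688_a_at and Grb2 1449111_a_at both vemurafenib (PLX4032) points lie above all others, while Nras 1422687_at stays between 1953 and 2031.

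The RAF kinases came next in the cascade, and their transcripts were not called. Braf is the kinase that both compounds were made against. Its probe set 1435434_at read 364 with DMSO, 372 and 324 with vemurafenib, and 346 and 430 with PLX7904. The groups overlapped, and vemurafenib against PLX7904 was 0.900-fold (95% interval 0.712 to 1.14). Another, 1435480_at, read 299 with DMSO and lower on all treated arrays, 213 and 249 with vemurafenib and 244 and 268 with PLX7904, which did not pass (adjusted p = 0.297 and 0.930).

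The Braf probe set 1456505_at went the other way. It read 168 with DMSO, 239 and 188 with vemurafenib, and 139 and 169 with PLX7904. Vemurafenib was 1.38-fold above PLX7904 (95% interval 1.01 to 1.88), which did not pass after adjustment (adjusted p = 0.199). Over the 6 tested Braf probe sets the log2 difference between vemurafenib and DMSO ran from -0.38 to 0.33, with 3 above 0 and 3 below. The other 3 tested were dim, with signals from 36.4 to 123, and overlapped between the compounds.

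Araf encodes the X-linked RAF kinase. Its 5 probe sets all had log2 differences below 0 between vemurafenib and DMSO, from -0.45 to -0.13, and none passed (smallest adjusted p = 0.347). The probe set 1435566_s_at read 457 with DMSO, 453 and 386 with vemurafenib, and 496 and 487 with PLX7904. Both vemurafenib arrays lay below both PLX7904 arrays, at 0.851-fold (95% interval 0.697 to 1.04, adjusted p = 0.312). The probe set 1426602_at read 319 with DMSO, 255 and 262 with vemurafenib, and 263 and 273 with PLX7904. Its 4 treated arrays lay below DMSO with either compound, and the compounds differed by 0.966-fold (0.774 to 1.21).

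The remaining Araf probe sets, 1428607_at, 1445693_at and 1440764_at, read between 74.2 and 178. Dim probe sets as a whole read lower on the vemurafenib arrays: the median log2 difference from DMSO was -0.20 among the dimmest 25% of all probe sets tested and -0.13 among the next 25%. Of the 5 Araf probe sets, 4 lie in these ranges of signal, and the part of this shift in their values was not tested.

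Ksr1, the scaffold, was measured above the filter by 1 of its 3 probe sets. The probe set 1419823_s_at read 114 with DMSO, 125 and 118 with vemurafenib, and 154 and 151 with PLX7904. Both PLX7904 arrays lay above the other 3. Vemurafenib against PLX7904 was 0.799-fold (95% interval 0.579 to 1.10, adjusted p = 0.389) and PLX7904 against DMSO 1.33-fold (0.897 to 1.97, adjusted p = 0.895), and neither passed.

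**Figure D3:**
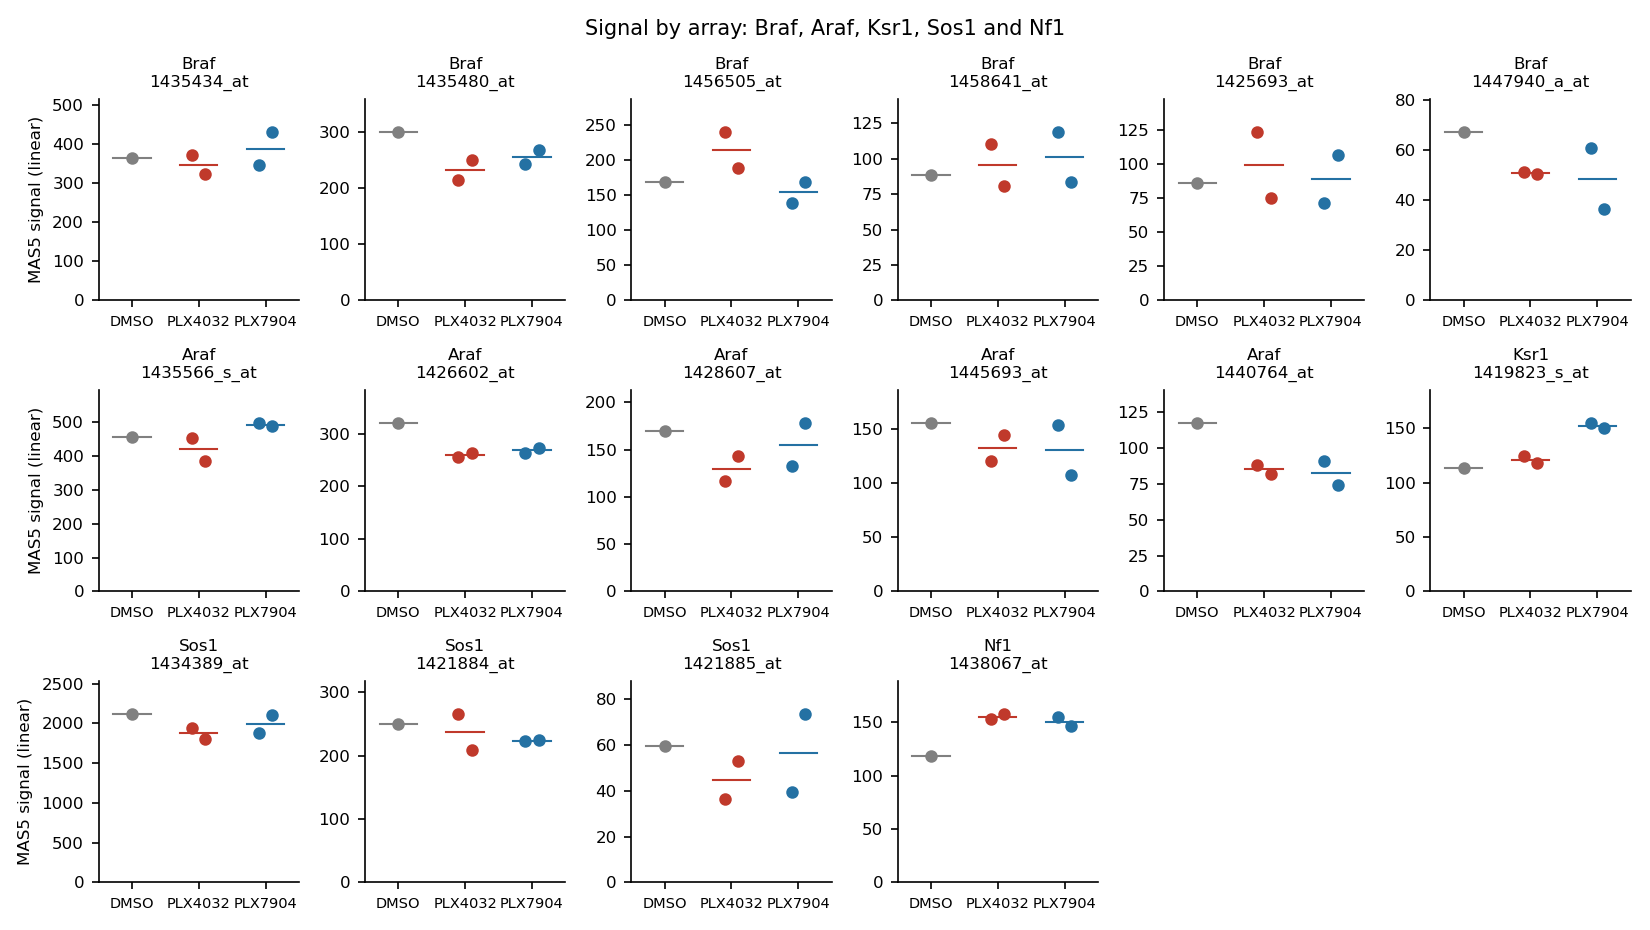
Deposited MAS5 signal on a linear scale (y axis, from 0) on each of the 5 arrays for the tested probe sets of Braf, Araf, Ksr1, Sos1 and Nf1, with points for arrays and a line for the group mean. The compounds overlap in 12 of the 16 panels, while the vemurafenib (PLX4032) arrays overlap the single DMSO array in 4. Lack of overlap was common among all probe sets tested. There both vemurafenib arrays lay above DMSO in 32.6% and below it in 47.9%, and above both PLX7904 arrays in 22.2% and below them in 31.2%. None of the probe sets shown was called in any comparison.

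Map2k1 encodes MEK1, the substrate of RAF, and was read by 1 probe set. Signals of 1416351_at were 3131 with DMSO, 4010 and 3731 with vemurafenib, and 3020 and 2758 with PLX7904. Both vemurafenib arrays lay above the other 3 and both PLX7904 arrays below DMSO. Vemurafenib was 1.34-fold above PLX7904 (95% interval 1.18 to 1.52, adjusted p = 0.0107), a call kept whichever treated array was left out (adjusted p up to 0.0471). Against DMSO it was 1.23-fold higher (1.06 to 1.44) and did not pass (adjusted p = 0.0955), and PLX7904 was 0.922-fold of DMSO (0.793 to 1.07, adjusted p = 0.926).

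Map2k2 encodes MEK2, the close relative of MEK1. The probe set 1415974_at read 2885 with DMSO, 3185 and 3082 with vemurafenib, and 2907 and 2568 with PLX7904. The vemurafenib arrays lay above the others, but the difference of 1.15-fold between the compounds (95% interval 1.01 to 1.30) did not pass (adjusted p = 0.183). The probe set 1460636_at read 645 with DMSO, 526 and 562 with vemurafenib, and 557 and 614 with PLX7904. It pointed the other way from DMSO, at 0.844-fold with vemurafenib (0.678 to 1.05, adjusted p = 0.340), and the compounds overlapped, at 0.930-fold (0.778 to 1.11). Whether Map2k1 and Map2k2 differ in their response was not tested.

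The start regions of Rasa1, Map2k1 and Nras, genes with a call between the compounds, are shown for the motifs they hold. The 2 windows listed for Grb2, which was also called there, hold none of the motifs searched and are not printed. They are 300-base windows from RefSeq on build GRCm38.p6, from 250 bases before to 50 after an annotated start, 5′ to 3′ on the gene's strand. Capitals mark matches on either strand to CCGGAA, the core bound by ETS factors, some of which ERK phosphorylates, to TGANTCA, the AP-1 site, to TGACGTCA, the cAMP response element, and to GGGCGG, the GC box. Matches to GGGCGG overlap each other once in the Nras window.
Rasa1 chr13:85289437-85289736, minus strand: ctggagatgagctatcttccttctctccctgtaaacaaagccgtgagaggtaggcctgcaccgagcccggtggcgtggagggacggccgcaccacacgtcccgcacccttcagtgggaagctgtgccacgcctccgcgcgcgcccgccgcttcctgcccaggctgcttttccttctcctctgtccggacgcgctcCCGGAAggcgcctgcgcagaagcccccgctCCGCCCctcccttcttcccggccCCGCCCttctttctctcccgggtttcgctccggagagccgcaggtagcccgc
Map2k1 chr9:64253556-64253855, minus strand: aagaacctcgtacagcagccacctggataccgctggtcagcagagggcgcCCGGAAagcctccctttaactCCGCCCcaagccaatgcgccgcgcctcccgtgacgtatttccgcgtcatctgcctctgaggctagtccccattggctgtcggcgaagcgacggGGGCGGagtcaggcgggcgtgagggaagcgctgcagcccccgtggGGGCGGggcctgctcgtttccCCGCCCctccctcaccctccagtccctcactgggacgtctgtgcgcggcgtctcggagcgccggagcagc
Nras chr3:103058035-103058334, plus strand: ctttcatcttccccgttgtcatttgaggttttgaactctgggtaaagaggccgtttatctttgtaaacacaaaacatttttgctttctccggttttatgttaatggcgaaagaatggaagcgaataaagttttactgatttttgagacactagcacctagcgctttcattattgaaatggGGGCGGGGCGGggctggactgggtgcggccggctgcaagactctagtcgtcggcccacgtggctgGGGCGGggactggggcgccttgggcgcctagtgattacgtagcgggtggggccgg

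The Rasa1 window holds 1 match to CCGGAA and 2 to GGGCGG, that of Map2k1 holds 1 and 4, and that of Nras holds 0 and 3. None of them holds TGANTCA or TGACGTCA. CCGGAA is also in the windows of Araf, Nf1 and Sos1, which were not called, so that it was in 5 of the 12 windows listed for the 10 genes and in 14.9% of all 32851 windows. GGGCGG was in 8 of the 12 windows and in 35.7% of all. TGANTCA was in 1 of the 12, a window of Ksr1, and in 7.81% of all, and TGACGTCA in 1, that of Braf, and in 1.79% of all. A match is a run of letters and not a measured binding site.

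The called probe sets were compared with others of like brightness, since the median difference varied with signal. Among probe sets between the 75th and 90th percentile of signal, which hold Nras 1422688_a_at, Grb2 1449111_a_at, Map2k1 and Rasa1 1426477_at, the median log2 difference was -0.01 from DMSO and -0.01 between the compounds. In the same range 6.58% were called higher with vemurafenib than with DMSO, and 9.07% higher than with PLX7904. Between the 50th and 75th percentile, where Rasa1 1426478_at lies, the medians were -0.07 and -0.04, and 3.68% and 5.61% were called higher. Among the brightest 10%, which hold Rasa1 1426476_at, the medians were 0.08 and 0.01, and 11.5% and 10.3% were called higher. The called members had log2 differences of 0.41 to 0.55 from DMSO and 0.34 to 0.49 between the compounds. They were called by these same differences, so their distance from the medians is no separate result.

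**Figure D4:**
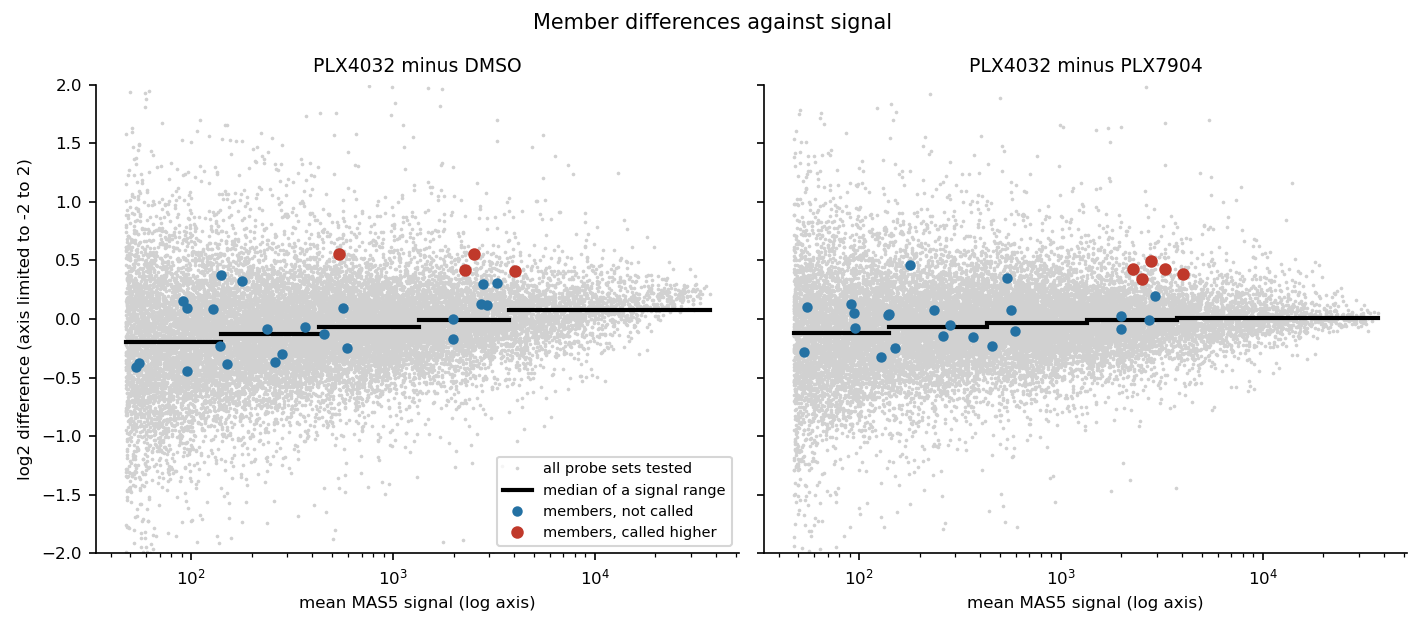
Log2 difference (y axis, limited to -2 to 2) against mean signal (x axis, log scale) for all 19766 probe sets tested (grey), for vemurafenib (PLX4032) against DMSO and against PLX7904, with black lines at the median of 5 ranges of signal. The called members (red) lie between 0.34 and 0.55. They were called by these same differences, so their place above the black lines is no separate result. The uncalled members (blue) lie on either side of the black lines.

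The other 9 probe sets of the 10 genes stayed below the filter, 3 of Braf and 2 each of Ksr1, Sos1 and Nf1. Their signals ran from 1.33 to 56.1, and their means from 8.14 to 31.4, where the dimmest tested member had a mean of 53.4. Single probe sets varied widely between arrays of 1 group, as with Ksr1 1442581_at at 35.2 and 3.62 on the PLX7904 arrays, and no difference is given for them.

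The profile of Rasa1 1426477_at, the member with the smallest p in a test over the 3 groups, was set beside those of all other genes tested. The closest over the 5 arrays, by the root mean square difference of centred log2 values, were Itgb1 (0.0159), Cd160 (0.0175) and Dusp6 (0.0187). Itgb1, an integrin chain, read 3515 with DMSO, 5145 and 5304 with vemurafenib, and 3967 and 4152 with PLX7904. Dusp6, a phosphatase that inactivates ERK, read 6050, then 8619 and 8792, then 6881 and 7204 in the same order. Cd160, an immune receptor, was dim, at 39.3, 59.3, 58.8, 46.4 and 46.3. Its DMSO and PLX7904 signals lay below the filter, so that it was tested only through its vemurafenib signals. It was not called in any comparison under any setting.

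Other genes of the pathway were taken from 6 lists of adaptors and exchange factors, RAS proteins, GTPase activators, RAF regulators, ERK-level kinases and scaffolds, and proteins of RAS membrane processing. Of 51 genes listed 43 had a probe set, and 38 passed the filter with 83 probe sets. Against DMSO, vemurafenib had 5 of the 83 called higher (6.02%, against 3.74% of all probe sets) and 1 called lower (1.2%, against 3.41%). Between the compounds 8 were higher (9.64%, against 4.62%) and 1 lower (1.2%, against 4.53%), and with PLX7904 against DMSO limma called 0. Most of these genes had several probe sets that did not move together, and each call below is of 1 probe set.

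Gab2, a docking protein that binds GRB2, had 1 of 3 probe sets called against DMSO, at 1.66-fold (adjusted p = 0.0274), while the others were at 0.620-fold and 1.22-fold. For Rras2, a RAS relative, 1 of 2 was called at 1.36-fold (0.0283), with the other at 1.25-fold. Of Pea15a, an ERK-binding protein, 1 of 2 was called at 1.34-fold (0.0444), with the other at 0.927-fold. Mknk1, a kinase that ERK activates, had 1 of 3 called, 3.18-fold at signals of 36.5 with DMSO and 120 and 127 with vemurafenib (0.0338). This probe set read 66.7 and 46.8 with PLX7904. The DMSO array and PLX7904 replicate 2 thus lay below the filter on signal, and the vemurafenib arrays lifted the mean past it. The other Mknk1 probe sets, at higher signals with DMSO, were at 1.02-fold and 1.37-fold. Ywhaz, a 14-3-3 protein that binds RAF, had 1 of 7 called against DMSO (1.20-fold, 0.0487), with the others from 0.661-fold to 1.27-fold. Ywhae, also a 14-3-3 protein, had 1 of 4 called, 1.42 times lower than DMSO (0.0489), while the others were at 0.982-fold to 1.12-fold.

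Between the compounds Rasa2, another GTPase activator for RAS, had 1 of 2 probe sets called at 1.34-fold (adjusted p = 0.0361), with the other at 1.33-fold. The kinase Rps6ka3 had 1 of 2 called at 1.37-fold (0.0446), and the other pointed the opposite way at 0.848-fold (0.161). The adaptor Crk had 1 of 4 called at 1.20-fold (0.0463), with the others from 0.888-fold to 1.16-fold. Ywhaz had 1 of 7 called (1.38-fold, 0.0180), a different probe set from the one called against DMSO. It read 13216 with DMSO, 14582 and 13122 with vemurafenib, and 8927 and 11250 with PLX7904. Against DMSO it was at 1.05-fold with vemurafenib (0.794) and 0.758-fold with PLX7904 (0.626), and neither passed. The scaffold Cnksr1 (1.51-fold, 0.0292) and Pde6d, a carrier of lipid-modified RAS proteins (1.36 times lower, 0.0315), had 1 tested probe set each. The same probe sets of Gab2 (0.0343), Rras2 (0.0261) and Pea15a (0.0145) were called here as against DMSO.

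Against DMSO all 6 calls ended without the filter on signal (adjusted p from 0.0629 to 0.179). The call of Ywhae also ended without the pseudocount (0.0501), with quantile-normalized signals (0.0539), with cyclic loess (0.0510) and with median centring (0.165). Ywhaz lost its call in the last 3 of these as well (0.232, 0.264 and 0.0978). With a treated array left out, Gab2, Rras2 and Ywhae kept theirs each time, Pea15a (0.183) and Ywhaz (0.259) lost it without vemurafenib replicate 1 and Mknk1 (0.0535) without replicate 2.

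Between the compounds 8 of the 9 calls, those other than Pea15a, ended without the filter (adjusted p from 0.0538 to 0.0887). All 9 ended without at least 1 treated array, those of Gab2 (highest adjusted p 0.118), Crk (0.201) and Rps6ka3 (0.150) whichever of the 4 was left out. Cnksr1 (0.124) and Pde6d (0.133) kept it only without vemurafenib replicate 1, and Rasa2 (0.195) only without vemurafenib replicate 2. Pea15a (0.0850) lost it without vemurafenib replicate 1 or PLX7904 replicate 2, Rras2 (0.0817) without PLX7904 replicate 2, and Ywhaz (0.0504) without PLX7904 replicate 1. Crk also lost it with quantile-normalized signals (0.0550) and cyclic loess (0.0571), and Pde6d with median centring (0.182).

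Transcripts that ERK activity is known to induce were read beside them, from a list of 10 of which 9 passed the filter with 18 probe sets. With vemurafenib 5 of the 18 were higher than with DMSO (27.8%, against 3.74% of all probe sets tested) and 0 lower (against 3.41%). Compared with PLX7904, 5 were higher (27.8%, against 4.62% of all) and 0 lower (against 4.53%). Spry2, a feedback inhibitor, was 1.80-fold higher with vemurafenib than with PLX7904 (adjusted p = 9.43e-04). Epha2 was 1.52-fold higher (0.00179), Phlda1 1.44-fold (6.72e-04) and Dusp6 1.24-fold (0.0143). Each of these genes had only 1 tested probe set. Epha4 had 1 of 5 called, at 1.64-fold (0.00758), with the others from 1.12-fold to 1.31-fold. Not called between the compounds were Ccnd1 (1.04-fold to 1.10-fold), Dusp4 (1.30-fold), Etv4 (0.864-fold and 1.10-fold) and Etv5 (0.859-fold to 1.15-fold). With PLX7904 against DMSO limma called 0 of the 18. There Spry2 was at 1.75-fold (adjusted p = 0.229), with signals of 571 with DMSO and 960 and 1040 with PLX7904. Dusp6 was at 1.16-fold, Phlda1 at 1.06-fold, Epha2 at 1.02-fold and the Epha4 probe set called between the compounds at 0.775-fold. The 5 called probe sets of the cascade genes differed between the compounds by 1.27-fold to 1.41-fold, and Dusp6 lay below that range.

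Median centring of the arrays moved the median of all probe sets from -0.07 to 0.08 against DMSO, and the share of higher among all calls from 52.3% to 78.6%. Between the compounds it moved that share from 50.5% to 81.7%, and Rasa1 1426478_at was then called too. Of 27 member probe sets it called 4 higher than with DMSO, against 891 of all 19766. It called 6 of the 27 higher than with PLX7904, against 1423 of all 19766.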

How the data were processed

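Transcript levels were measured on 5 Affymetrix 3′ arrays. The deposited values are intensities on a linear scale, 1 per probe set, made with MAS5 per the submitters' processing notes, its version not given in the sources used here. The mean of the middle 96% of each array is 500, so that whole arrays had been scaled. No detection calls were used, and the array number limits the precision.

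Symbols came from the platform annotation: 34958 of 45101 probe sets had 1, 932 several and 9211 none. All 10 gene identifiers matched RefSeq (GRCm38.p6) under the same symbol, and 0 columns were unmapped. Signals were analysed as log2(signal + 3.34), the 10th percentile of all values, and probe sets with a mean of the 3 group means of at least 47.4 were tested. The model had 3 group means over all 5 arrays (lmFit of limma 3.58.1 in R 4.3.3, moderated with a trend on intensity, 2 residual and 7.84 prior degrees of freedom). Tests were two-sided. Errors are standard errors and 95% intervals of that fit. The fit was tested on simulated data with normal errors whose spread followed signal. Such data could not test the trend on intensity, since it was built into them.

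Members and lists were chosen with earlier results of these data known. Named are all members, up to 4 called genes of each other list by size, and the 3 genes closest in profile to the member with the smallest F-test p. Genes of the lists without a probe set of their own symbol were not analysed here. Alternatives covered pseudocount, filter, normalization, variance moderation, probe set choice, a replicate block and left-out arrays. The labels do not say whether replicate numbers pair the samples, and the main model did not pair them. Figures used Python 3.11.15 and matplotlib 3.10.9.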

Additional observations from a re-analysis of the deposited data

How the results depend on the processing

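No called member changed sign in any alternative. Set against each alternative, calls of members were kept 119 times and lost 22 times, while uncalled members changed sign 54 times and gained a call 3 times. Member probe sets higher with vemurafenib than with DMSO numbered 4, but 1 without the filter, 0 without the intensity trend, 1 (Rasa1) with 1 probe set a gene, 6 with a replicate block and 2 to 4 with 1 treated array left out. Between the compounds they numbered 5, but 0 without the trend, 3 with 1 probe set a gene (Map2k1, Grb2 and Rasa1), 3 without probe sets of suffix x, s or a, and 3 to 4 with 1 array left out. Over all probe sets, vemurafenib against DMSO gave 739 higher and 675 lower. These became 416 and 327 without the filter, 0 and 0 without the trend, 243 lower with median centring, and 641 to 957 higher and 757 to 1020 lower with 1 array left out. Between the compounds 913 and 896 became 591 and 507 without the filter, 0 and 0 without the trend and 1423 and 319 with median centring. With 1 array left out they were 626 to 881 and 416 to 1026. With 1 probe set a gene there were 590 and 565 against DMSO and 698 and 745 between the compounds, over fewer probe sets tested. For PLX7904 against DMSO the counts of 0 and 0 became 0 and 2 without suffixed probe sets, 2 and 5 with a replicate block, and 0 to 29 and 0 to 61 with 1 array left out. None of these was a member. A lone array left in a group was assumed to vary like the others.

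The same replicate number marks no shared batch in the labels, and deviations of same-numbered arrays did not correlate (r = -0.00). With the replicate block Map2k1 (log2 0.36, adjusted p = 0.0355) and Grb2 1449111_a_at (0.39, 0.0323) were also called against DMSO, and no member call was lost. The cause of these changes was not tested. Dim probe sets limit what could be seen: the 95% interval of a member reached 0.16 to 0.98 on the log2 scale to either side between the compounds, and 0.19 to 1.20 against DMSO.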
